A study of Homo sapiens with 27 samples.

Results

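Expression of 10 BCL2 family genes was followed in 92.1 uveal melanoma cells over 21 days in a FAK inhibitor. The members are the rows of the count table whose symbol is *BCL2*, *BCL2L1*, *MCL1*, *BCL2A1*, *BCL2L11*, *BMF*, *BIK*, *BAD*, *BBC3* or *PMAIP1*. The rule uses names and no measured value, although the names were set with earlier results of these data known, and all 10 were found among the 61533 genes of the table. The 92.1 line is an established human line, *GNAQ* mutant and melanocytic, and every group comes from this 1 line. Cells received VS-4718 at 100 nM, which blocks focal adhesion kinase (the treatment is called FAKi here), or the solvent DMSO, with drug and medium renewed every 72 h. RNA from DMSO at day 0, and from DMSO and FAKi at days 3, 7, 14 and 21, gave 27 mRNA libraries in 9 groups of 3. The study asked whether semaphorin and plexin genes shift while the cells go on growing under FAK inhibition. The labels do not say whether a replicate number stands for a plate or for a repeat of the experiment, so each p-value measures the spread between these libraries, which may be technical.

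The BCL2 family sets the threshold for apoptosis at the mitochondrial outer membrane. The effectors BAX and BAK permeabilize that membrane, anti-apoptotic members such as BCL2, BCL-XL and MCL1 restrain them, and BH3-only proteins such as BIM, PUMA and NOXA bind the anti-apoptotic members and free the effectors. Much of the control of the BH3-only proteins is transcriptional, through FOXO and stress-response factors among others, and in melanocytic tumors the growth factor pathway through ERK is known to lower BIM and BMF.

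*MCL1* was the highest and *BCL2A1* the lowest of the 10 genes when counts were divided by exon length. Levels are CPM, counts relative to the TMM-scaled total of each library, and only the levels in this paragraph are per kb of exon. *MCL1* stood at 35.0 ± 4.18 CPM per kb (SD, n = 27, for all 10 genes). *PMAIP1* at 19.4 ± 8.47, *BBC3* at 18.7 ± 6.54 and *BAD* at 17.6 ± 10.7 CPM per kb came next and lay within their spread of each other. So did *BCL2* at 12.6 ± 3.47, *BMF* at 11.8 ± 2.98 and *BCL2L1* at 10.2 ± 1.07 CPM per kb. A step below were *BCL2L11* at 1.10 ± 0.373 and *BIK* at 1.03 ± 0.736 CPM per kb, which overlapped, and *BCL2A1* had 0.146 ± 0.206 CPM per kb. *MCL1* and *BCL2L1* varied least, with a ratio of the highest to the lowest group mean of 1.46 and 1.31. The anti-apoptotic *BCL2* at 2.28 lay among the BH3-only genes, between *BMF* at 2.13 and *BCL2L11* at 2.325. *BBC3* was at 2.78, *PMAIP1* at 4.14, *BAD* at 5.02 and *BIK*, with 3 to 73 counts per library, at 8.40. *BCL2A1* had group means of 0 and so no ratio.

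**Figure D1:**
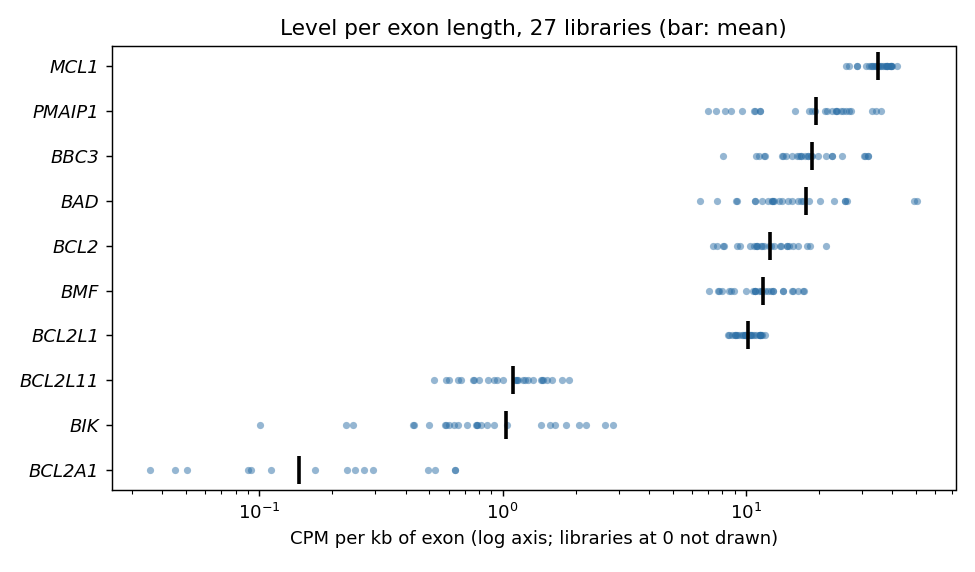
Each point is the level of a gene in 1 of 27 libraries in CPM per kb of exon, on a log axis, and the bar is the mean. *MCL1* lies highest with 25.8 to 41.5 CPM per kb, and 12 libraries without a *BCL2A1* count are not drawn.

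The promoters of *PMAIP1*, *BMF* and *BAD* are shown because these genes moved with FAKi in the comparisons below and a RefSeq start lies at, or for *BAD* just upstream of, the start of the transcript that was counted. The sequences are the 250 bases before the RefSeq start (GRCh38.p14), 5′ to 3′ on the strand of the gene. Capitals mark the letters TGACG, a half-site known to be bound by ATF and CREB factors, and GGGCGG, the GC box, on either strand. The windows are chr18:59899746-59899995 (plus strand) for *PMAIP1*, chr15:40108880-40109129 (minus strand) for *BMF* and chr11:64284666-64284915 (minus strand) for *BAD*.
PMAIP1: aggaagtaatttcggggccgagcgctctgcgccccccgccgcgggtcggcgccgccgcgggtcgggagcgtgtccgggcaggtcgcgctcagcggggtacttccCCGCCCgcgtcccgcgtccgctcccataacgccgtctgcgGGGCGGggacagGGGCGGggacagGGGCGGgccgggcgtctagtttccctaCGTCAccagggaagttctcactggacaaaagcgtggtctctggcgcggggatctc
BMF: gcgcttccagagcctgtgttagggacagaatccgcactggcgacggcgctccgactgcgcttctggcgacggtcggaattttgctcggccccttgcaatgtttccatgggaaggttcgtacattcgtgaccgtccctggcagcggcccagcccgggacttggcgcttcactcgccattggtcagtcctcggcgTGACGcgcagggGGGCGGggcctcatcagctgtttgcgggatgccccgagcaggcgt
BAD: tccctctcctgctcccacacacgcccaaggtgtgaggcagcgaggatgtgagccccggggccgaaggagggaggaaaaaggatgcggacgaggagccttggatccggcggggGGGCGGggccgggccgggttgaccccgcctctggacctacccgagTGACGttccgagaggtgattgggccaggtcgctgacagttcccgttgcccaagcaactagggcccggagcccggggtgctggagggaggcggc

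The first base of the TGACG match lay at -55 in *PMAIP1*, -57 in *BMF* and -93 in *BAD*, counted from the start. Of the 11 RefSeq windows matched to 8 members, 6 held TGACG on either strand, against 21.2% of 35116 promoters. TGACG and GGGCGG both contain the letters CG. The windows with TGACG had 65.2% to 72.8% G and C in *PMAIP1*, *BMF*, *BAD* and *BCL2* and 50% in *BCL2L1*. The median of all promoters was 58%, and the part of this base content in the shares was not tested. GGGCGG was in 5 of the 11, against 42.6% of promoters, and did not overlap TGACG. The E-box CACGTG was found in 1 window (*BBC3*), the M-box core CATGTG in 1 (*BCL2A1*) and the FOXO motif TGTTTAC in 1 (*BCL2L11*), against 6.34%, 9.42% and 2.98% of promoters. *BAD*, *BMF* and *BCL2L1* each have 2 windows among the 11, and those of *BAD* overlap and hold the same TGACG site. These are matches of letters and not measured binding, and *MCL1* and *BIK* were not matched.

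Total counts ran from 12161994 to 43651551 per library. The identity of the line was checked on markers. All 7 melanocytic markers, among them *MITF*, *PMEL* and *TYR*, were found, with a summed level between 9365 and 15290 CPM, against 6.17 to 17.0 CPM for the fibroblast, 23.5 to 125.9 CPM for the leukocyte and 0.818 to 4.79 CPM for the epithelial and endothelial list. The leukocyte sum was nearly all *CD68*, with *PTPRC* at 0.0906 CPM or less, and *KRT5* was at 0. *CD68* was lower in FAKi at day 14 (-0.37 on the log2 scale) and day 21 (-1.32), as were *LUM* (-1.15) and *KRT8* (-1.39) at day 21, and the melanocytic *DCT* was higher at day 21 (1.19), all past an adjusted p of 0.05. Of the 7 melanocytic markers 2 were higher in FAKi at day 14 and 2 at day 21, *DCT* among the latter. Of all genes 12.4% and 11.6% passed the adjusted p on these days. Libraries were compared by the root mean square difference of log2 CPM over 16981 genes, and 2 lay far from both replicates of their group. FAKi day 7 replicate 1 had its nearest neighbor at FAKi day 14 (replicate 1, distance 0.215) and lay 0.707 and 0.740 from its own replicates. DMSO day 21 replicate 3 had its nearest neighbor at DMSO day 3 (replicate 3, 0.324) and lay 0.720 and 0.767 from its own. Its column name, unlike its title, writes the day with an extra digit. Whether these 2 libraries carry the right labels was not tested. DMSO day 3 replicate 1 was nearest to DMSO day 0 (replicate 3, 0.266), and its own replicates were 0.577 and 0.807 away. DMSO day 3 replicates 2 and 3 were nearest to DMSO day 21 replicate 3 (0.379 and 0.324) and lay 0.474 from each other. The fits without DMSO day 3 replicate 1 thus rest on replicates 2 and 3, and which of the 3 is typical of day 3 was not tested. Mitochondrial genes took 18.1% of the counts of DMSO day 3 replicate 1, against 9.59% and 8.61% in replicates 2 and 3. The share was 16.98% to 18.81% in DMSO at day 0 and 16.8% to 18.7% in FAKi at day 3. At day 14 that share was 21.95% to 26.97% in DMSO and 20.7% to 22.1% in FAKi, and at day 21 it was 5.49%, 5.49% and 9.75% in DMSO and 10.7% to 11.2% in FAKi. With the mitochondrial genes left out before scaling, the same members passed at each of these days, and the part of these shares and of *CD68* in the results below was otherwise not tested.

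The clearest change under FAKi was at day 14 and was in BH3-only genes. *PMAIP1*, *BBC3* and *BMF* were lower and *BAD* was higher in FAKi than in DMSO. The anti-apoptotic genes did not pass the test on any day. Each day was fitted on its own 6 libraries with edgeR's quasi-likelihood test and Benjamini-Hochberg adjustment over all genes with at least 20 counts, and edgeR adjusted p below means this test. At day 14, 4 of the 9 members tested passed an adjusted p of 0.05, 1 higher and 3 lower, against 12.4% of all genes tested (6.35% higher, 6.1% lower). *PMAIP1* alone also passed an absolute log2 fold change over 1, against 1.66% of genes. *BCL2A1* had too few counts to be tested at days 3, 7 and 14, and all 10 members were tested at day 21 and in the fits over several days.

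At days 3, 7 and 21 no member passed the adjusted p. The background at day 3 was 0% of 22846 genes by the adjusted p and 0% with the fold as well, and 4 of 9 members had an unadjusted p under 0.05, against 23.8% of genes. DESeq2 passed *BAD* and *PMAIP1* at that day, against 8.05% of genes. Without DMSO day 3 replicate 1, edgeR passed 4 of 9 members, against 32.7% of genes. At day 7 the background was 0.0269% by either rule, 2 of 9 members had an unadjusted p under 0.05 (8.77% of genes) and DESeq2 passed 0 (0.942%). Without FAKi day 7 replicate 1, edgeR passed 1 of 9 members, against 2.96% of genes. At day 21, 11.6% of genes passed the adjusted p (5.27% higher, 6.32% lower) and 5.28% passed both thresholds. Of the members, 2 of 10 had an unadjusted p under 0.05 there, *BAD* and *BMF*, against 32.6% of genes, and DESeq2 passed both, against 20.6%. Without DMSO day 21 replicate 3, edgeR passed these 2 of 10, against 48.5% of genes. None of these day 21 shares of members was above that of all genes. The FAKi and DMSO libraries did not overlap in 4 of 9 members at day 3 (31% of all genes), in 3 of 9 at day 7 (16.8%), in 5 of 9 at day 14 (29%) and in 3 of 10 at day 21 (35.3%).

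**Figure D2:**
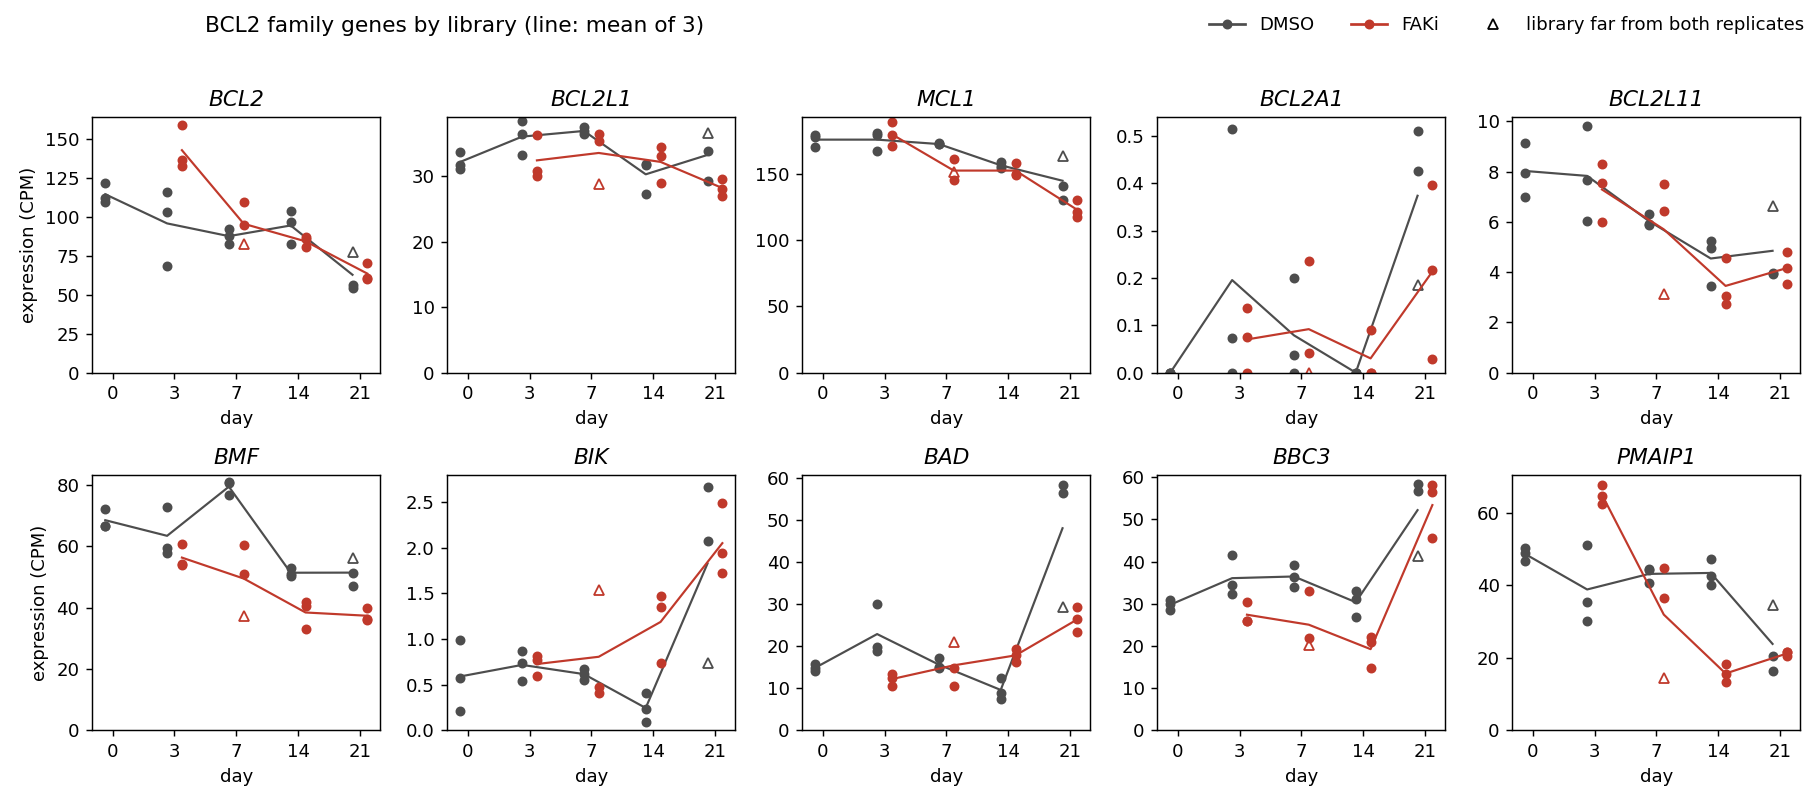
Expression of each member in CPM against day, with 1 point per library, a line through the means of 3, and triangles for FAKi day 7 replicate 1 and DMSO day 21 replicate 3. At day 14 the FAKi libraries of *PMAIP1* lie between 13.2 and 18.3 CPM, below the DMSO libraries at 40.2 to 47.4 CPM.

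*BCL2*, the founding anti-apoptotic member, lies on the minus strand of chromosome 18 from 63123346 to 63320128 (hg38) and carried 122, 112 and 110 CPM in the DMSO day 0 libraries, in the order of their replicate numbers as in all such lists. At day 3 it was 116, 103 and 68.8 CPM in DMSO and 133, 159 and 137 CPM in FAKi. All FAKi libraries of that day were above all DMSO libraries, and the lowest DMSO value was replicate 3. The log2 fold change was 0.60 ± 0.20 (standard error, here and below) with an edgeR adjusted p of 0.128, and it was 0.76 with an adjusted p of 0.00574 without DMSO day 3 replicate 1. At day 7 it was 92.4, 82.7 and 88.1 CPM in DMSO and 82.4, 94.7 and 110 CPM in FAKi, and at day 14 it was 82.7, 104 and 97.1 CPM in DMSO and 80.5, 85.6 and 87.1 CPM in FAKi. At day 21 the values were 56.5, 54.4 and 77.8 CPM in DMSO and 60.1, 60.7 and 70.2 CPM in FAKi. On these 3 days the libraries of both treatments overlapped, with log2 fold changes of 0.13 ± 0.14, -0.17 ± 0.11 and 0.04 ± 0.17. By day 21 *BCL2* was at 62.91 ± 12.97 CPM in DMSO and 63.7 ± 5.67 CPM in FAKi (SD, n = 3).

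*BCL2L1*, which encodes BCL-XL (minus strand of chromosome 20, 31664463 to 31723529), kept to 26.99 to 38.49 CPM in all 27 libraries. It was 32.3 ± 1.38 CPM in DMSO at day 0 (SD, n = 3). At day 21 it was 33.9, 29.3 and 36.7 CPM in DMSO and 28.1, 29.6 and 26.99 CPM in FAKi, and only DMSO replicate 2 fell within the FAKi range. Its FAKi and DMSO libraries overlapped on each of the 4 days, and its log2 fold changes ran from -0.22 ± 0.14 at day 21 to 0.09 ± 0.12 at day 14. Of its exon bases 45.7% also lie in *ABALON* on the other strand, and the strand setting of the counting is not given in the sources used here, so reads of these genes may not be separated.

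*MCL1*, a short-lived anti-apoptotic protein (minus strand of chromosome 1, 150574176 to 150579477), was at 175.5 ± 4.91 CPM in DMSO at day 0. At day 7 it was 173, 172 and 172 CPM in DMSO and 151, 145 and 161 CPM in FAKi, and at day 21 it was 141, 130 and 163 CPM in DMSO and 121, 117 and 130 CPM in FAKi. The FAKi libraries lay below the DMSO libraries on both days. At day 3 and day 14 they overlapped. Day 3 gave 175 ± 7.63 CPM in DMSO against 180 ± 8.80 CPM in FAKi, and day 14 gave 156.5 ± 2.67 against 152 ± 5.23 CPM (SD, n = 3). The log2 fold changes at days 7 and 21, -0.17 ± 0.12 and -0.21 ± 0.14, had edgeR adjusted p of 0.721 and 0.300.

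*BCL2A1* encodes BFL-1, an anti-apoptotic protein known as a target of MITF in melanocytic cells (minus strand of chromosome 15, 79960892 to 79971169). It was close to silent in this line, at 0.514 CPM or less in every library and without a count in 12 of 27. *MITF* itself was at 128.1 to 323.1 CPM in the same libraries. The DMSO day 0 and day 14 libraries held 0 *BCL2A1* counts, which allows up to 0.0635 CPM and 0.0319 CPM over the 3 libraries of each group (3 counts, counting error only). At days 3 and 7 the groups held 3 to 16 counts, 14 of the 16 of DMSO day 3 in replicate 3, and FAKi at day 14 held 3. The most were 28 counts in DMSO at day 21 (15, 9 and 4 in replicates 1 to 3), against 14 in FAKi at day 21 (9, 4 and 1).

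*BCL2L11* encodes BIM, which binds all anti-apoptotic members (plus strand of chromosome 2, 111120914 to 111168445). It was at 8.02 ± 1.08 CPM in DMSO at day 0 and at 2.73 to 9.81 CPM over all libraries, and both treatments overlapped on each day. At day 14 it was 4.95, 3.43 and 5.24 CPM in DMSO and 3.06, 2.73 and 4.56 CPM in FAKi, and at day 21 it was 3.94, 3.98 and 6.62 CPM in DMSO and 4.18, 3.52 and 4.80 CPM in FAKi. The largest log2 fold change was -0.40 ± 0.28 at day 14 (edgeR adjusted p = 0.419). *BIK*, a BH3-only protein of the endoplasmic reticulum (plus strand of chromosome 22, 43110750 to 43129712), was low throughout, with 0.589 ± 0.387 CPM in DMSO at day 0 (SD, n = 3). At day 14 it was 0.0947, 0.409 and 0.228 CPM in DMSO (3, 13 and 7 counts) and 1.47, 1.35 and 0.740 CPM in FAKi (49, 39 and 19 counts). The FAKi libraries were all above the DMSO libraries, and FAKi day 7 replicate 1, the library near day 14, also held 1.54 CPM against 0.405 and 0.470 CPM in its replicates. The log2 fold change of 2.26 ± 0.76 had an edgeR adjusted p of 0.0559.

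*BMF*, a BH3-only protein known to be held at the cytoskeleton in attached cells (minus strand of chromosome 15, 40087890 to 40108879), was at 66.7, 66.7 and 72.1 CPM in DMSO at day 0, and its FAKi libraries lay below DMSO at days 7, 14 and 21. At day 7 it was 80.9, 76.8 and 80.6 CPM in DMSO and 37.2, 60.4 and 50.8 CPM in FAKi. At day 14 it was 50.2, 51.1 and 52.8 CPM in DMSO and 40.6, 41.7 and 32.9 CPM in FAKi, and at day 21 it was 51.2, 46.9 and 56.1 CPM in DMSO and 36.2, 35.8 and 40.0 CPM in FAKi. On these 3 days no FAKi library reached a DMSO library, and the lowest FAKi value at day 7 was replicate 1, 1 of the libraries that stood apart. The log2 fold changes were -0.68 ± 0.18, -0.42 ± 0.11 and -0.44 ± 0.13, with edgeR adjusted p of 0.312, 0.0179 and 0.0634. Without FAKi day 7 replicate 1 the day 7 value was -0.51 with an adjusted p of 0.0277, and without DMSO day 21 replicate 3 the day 21 value was -0.35 with 0.0109. At day 14 the call was lost without DMSO replicate 3 (0.0542) or FAKi replicate 3 (0.0812), and in the fit of all 27 libraries (0.0778). With the replicate number as a block, a pairing that the labels do not state, *BMF* passed at day 21 (-0.44, edgeR adjusted p = 0.0155). So did *BAD*, which made 2 of 10 members against 29.9% of genes in that fit. At day 3 the groups overlapped, with 72.9, 59.5 and 57.8 CPM in DMSO and 60.7, 53.9 and 54.3 CPM in FAKi and a log2 fold change of -0.15 ± 0.15. Antisense to 9.83% of its exon bases lies *BMF-AS1*, at 3.66 CPM on average. The log2 fold changes of *BMF-AS1* were -0.56, -0.24, -0.53 and -0.31 at days 3, 7, 14 and 21, none past the adjusted p. Its mean effect over these days was -0.41 ± 0.13 (edgeR adjusted p = 0.0362). The part of its reads in the values of *BMF* was not tested.

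*BBC3* encodes PUMA, a BH3-only protein that binds all anti-apoptotic members (minus strand of chromosome 19, 47220824 to 47231199). At day 14 it was 31.1, 26.9 and 33.1 CPM in DMSO and 22.0, 20.9 and 14.8 CPM in FAKi, and all FAKi libraries were below all DMSO libraries. It fell by 0.66 ± 0.15 on the log2 scale (edgeR adjusted p = 0.00451). FAKi was also below DMSO without overlap at day 3, with 26.0, 30.3 and 25.9 CPM against 32.3, 34.4 and 41.5 CPM, and at day 7, with 20.3, 33.0 and 21.8 CPM against 34.0, 36.3 and 39.1 CPM. These differences, -0.38 ± 0.16 and -0.53 ± 0.19, had adjusted p of 0.194 and 0.486, and without DMSO day 3 replicate 1 the day 3 value was -0.45 with 0.0403. At day 21 the groups overlapped, with 56.8, 58.4 and 41.4 CPM in DMSO and 56.4, 58.1 and 45.7 CPM in FAKi and a log2 fold change of 0.06 ± 0.16.

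*BAD* binds BCL2 and BCL-XL and is known to be switched off by phosphorylation downstream of growth factors (minus strand of chromosome 11, 64269830 to 64284639). At day 14 it was 12.5, 8.79 and 7.45 CPM in DMSO and 19.4, 17.8 and 16.2 CPM in FAKi, all FAKi libraries higher. FAKi was above DMSO by 0.89 ± 0.18 on the log2 scale (edgeR adjusted p = 0.00177). The order of the treatments was the opposite at day 3, with 18.8, 19.8 and 30.0 CPM in DMSO and 13.4, 12.5 and 10.6 CPM in FAKi. DMSO itself moved, from 14.9 ± 0.724 CPM at day 0 to 22.9 ± 6.21 at day 3 and 9.58 ± 2.62 at day 14 (SD, n = 3). The FAKi means of days 3 and 14 were 12.2 ± 1.46 and 17.8 ± 1.58 CPM. It was the opposite again at day 21, with 58.2, 56.5 and 29.4 CPM in DMSO and 26.4, 29.4 and 23.3 CPM in FAKi, where DMSO replicate 3 and FAKi replicate 2 nearly met. The log2 fold changes were -0.89 ± 0.22 at day 3 and -0.84 ± 0.24 at day 21, with edgeR adjusted p of 0.0972 and 0.0578. Without DMSO day 3 replicate 1 the day 3 value was -1.01 with an adjusted p of 0.00183, and without DMSO day 21 replicate 3 the day 21 value was -1.09 with 2.67e-07. With the replicate block the day 21 value was -0.79 with an edgeR adjusted p of 0.00369. At day 7 the groups overlapped (-0.01 ± 0.24), with 14.7 to 17.1 CPM in DMSO and 20.9, 14.9 and 10.5 CPM in FAKi. *GPR137* covers 32.8% of the exon bases on the other strand, and its own log2 fold changes were -0.04, 0.23, 0.05 and -0.16 at the 4 days.

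*PMAIP1* encodes NOXA, a BH3-only protein selective for MCL1 and BFL-1 and a known target of ATF4 (plus strand of chromosome 18, 59899996 to 59904305). At day 14 it was 47.4, 42.7 and 40.2 CPM in DMSO and 13.2, 15.5 and 18.3 CPM in FAKi, so that the highest FAKi library was below the lowest DMSO library. It fell by 1.47 ± 0.13 on the log2 scale (edgeR adjusted p = 1.79e-07), the only member past both thresholds. At day 3 the order was the opposite, with 51.2, 35.3 and 30.1 CPM in DMSO and 62.6, 64.7 and 67.8 CPM in FAKi. The day 3 difference of 0.77 ± 0.20 had an edgeR adjusted p of 0.0972, and it was 1.01 with an adjusted p of 0.000303 without DMSO day 3 replicate 1. At day 7 it was 44.3, 44.5 and 40.7 CPM in DMSO and 14.3, 36.6 and 44.9 CPM in FAKi. The low FAKi value was replicate 1, which stood apart, and the other two libraries were near DMSO. The log2 fold change of -0.43 ± 0.33 became -0.08 without it. At day 21 both groups were low and overlapped, with 16.4, 20.6 and 34.5 CPM in DMSO and 21.7, 20.4 and 21.6 CPM in FAKi and a log2 fold change of -0.15 ± 0.26. In a bulk library fewer cells with a transcript and less of it per cell cannot be told apart, here or for any other gene.

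**Figure D3:**
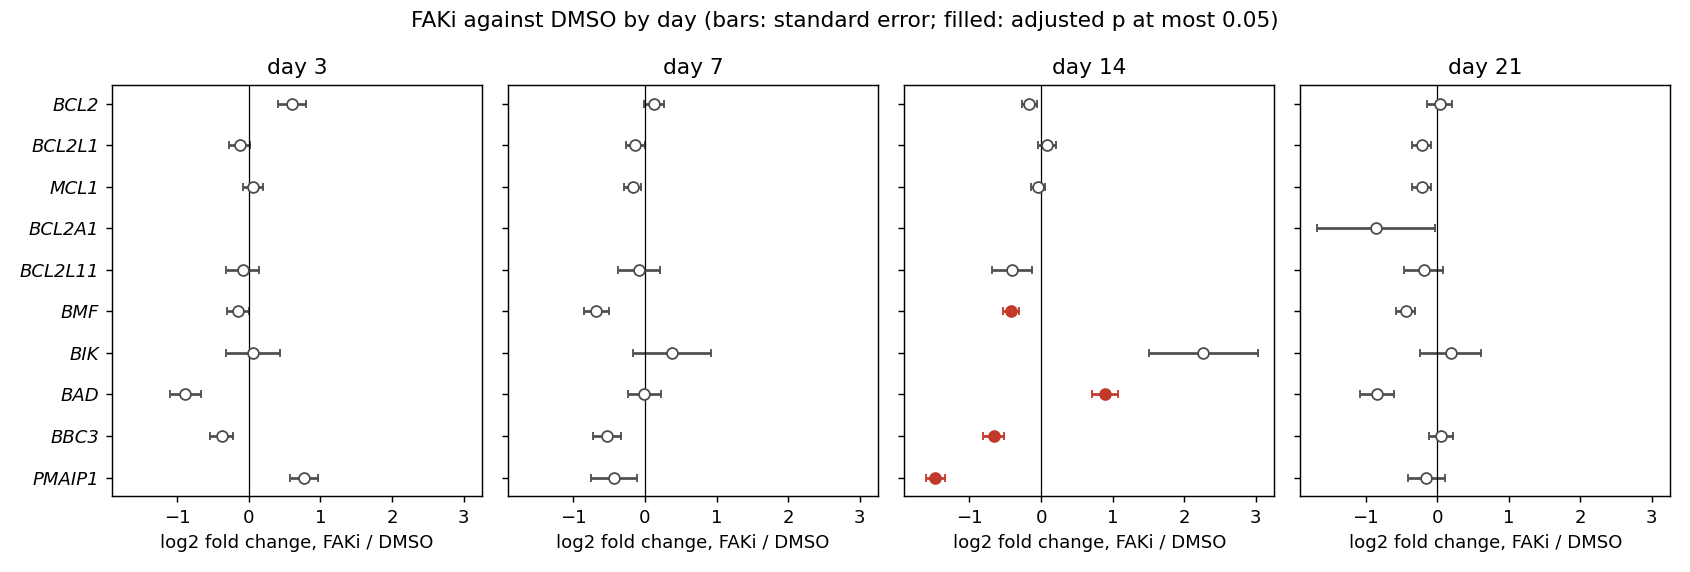
Log2 fold change of FAKi over DMSO for each member at days 3, 7, 14 and 21, with the standard error as bar and filled points for an edgeR adjusted p of at most 0.05. Only day 14 has filled points, *BMF* at -0.42, *BAD* at 0.89, *BBC3* at -0.66 and *PMAIP1* at -1.47.

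**Figure D4:**
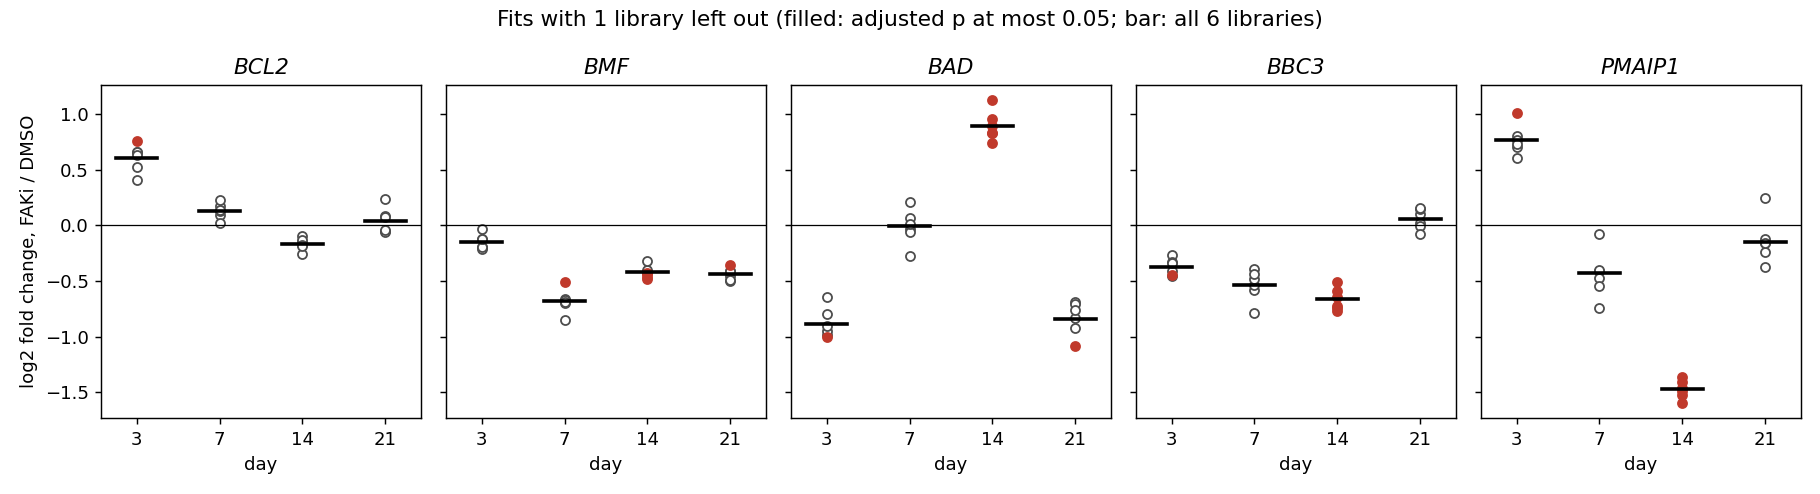
Log2 fold change of FAKi over DMSO for 5 members by day when 1 of the 6 libraries is left out, with filled points for an edgeR adjusted p of at most 0.05 and a bar for all 6 libraries. *PMAIP1* at day 14 stays filled from -1.60 to -1.36, while at day 3 it is filled only without DMSO day 3 replicate 1, at 1.01.

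The direction of FAKi for *PMAIP1* and *BAD* thus differed between days. The change of the effect from day 3 to day 14, a comparison added after the data were seen, was fitted as an interaction over 12 libraries that also serve the comparisons of both days. *PMAIP1* changed by -2.23 ± 0.24, *BAD* by 1.78 ± 0.30 and *BCL2* by -0.76 ± 0.23 on the log2 scale, with edgeR adjusted p of 6.61e-05, 0.00262 and 0.0476. These were 3 of 10 members, against 8.54% of genes, and *PMAIP1* and *BAD* also passed the fold threshold, against 4.33%. The call of *BCL2* was lost in 9 of 12 fits with 1 library left out. From day 3 to day 21 no member passed, against 2.93% of genes by the adjusted p and 2.22% by both thresholds. The 1 member with an unadjusted p under 0.05, against 19.1% of genes, was *PMAIP1*, at -0.93 ± 0.35 (edgeR adjusted p = 0.167), and DESeq2 passed 0. The median of all genes in that comparison was 0.09, or 0.17 with upper quartile scaling, which also moved the genes past the adjusted p from 231 higher of 745 to 352 higher of 765.

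When the FAKi effect was averaged over all days in a joint model of 24 libraries, *BMF* and *BBC3* were lower in FAKi. The mean effect was -0.43 ± 0.08 for *BMF* and -0.38 ± 0.09 for *BBC3*, with edgeR adjusted p of 0.00045 and 0.00554. The average covers days that differ, with *BBC3* at 0.06 ± 0.16 and overlapping libraries at day 21. *BMF* and *BBC3* were 2 of 10 members past the adjusted p, both lower, against 15.7% of genes (6.96% higher, 8.7% lower), so the share of members was near that of all genes. No member passed both thresholds (1.89% of genes, and 0 members with DESeq2), and 4 members had an unadjusted p under 0.05, against 30.3% of genes. By the adjusted p DESeq2 passed *BMF*, *BBC3* and *BIK*, against 19.7% of genes. *BMF* and *BBC3* passed in all 24 fits that left out 1 library. For *PMAIP1* and *BAD*, which moved in opposite directions on different days, the mean effects were -0.33 ± 0.14 and -0.21 ± 0.12 with adjusted p of 0.107 and 0.239, and *BIK* was at 0.72 ± 0.26 with 0.0586. Without both libraries that stood apart, *BCL2* at 0.22 and *BAD* at -0.35 passed as well (edgeR adjusted p = 0.0328 and 0.0103), while the share of all genes that passed was 25.3%.

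Most members also changed in DMSO alone. From day 0 to day 21, *BAD* rose by 1.69 ± 0.25 and *BBC3* by 0.80 ± 0.16 on the log2 scale, while *PMAIP1* fell by 1.04 ± 0.25, *BCL2* by 0.87 ± 0.16, *BCL2L11* by 0.74 ± 0.25 and *BMF* by 0.42 ± 0.12. Their edgeR adjusted p were 0.00273, 0.00587, 0.0121, 0.00469, 0.0387 and 0.0225. *BCL2A1* had an edgeR adjusted p of 0.0131, from 0 counts at day 0 to 0.376 CPM over the group at day 21. That is at least 5.92-fold higher than a floor of 3 counts over the day 0 group. It met the minimum of 20 counts only through the 28 counts of DMSO day 21, so its call carries no weight. The same limit holds where it is counted in this comparison below. With it, 7 of 10 members passed, 3 higher and 4 lower, against 44.9% of genes (24.1% higher, 20.7% lower). *BAD*, *PMAIP1* and *BCL2A1* were also past the fold threshold, against 23.3%. Of the 6 BH3-only members, which leave *BCL2A1* out, 5 passed the adjusted p, 2 higher and 3 lower, and 2 passed both thresholds. *BIK* was at 1.63 ± 0.61 (adjusted p = 0.0582), *MCL1* at -0.29 ± 0.13 (0.0956) and *BCL2L1* at 0.04 ± 0.13 (0.833).

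The DMSO day 21 libraries serve both this comparison and FAKi against DMSO at day 21, so the values are not independent. In *BAD* the level was 14.9 ± 0.724 CPM in DMSO at day 0, 48.1 ± 16.2 CPM in DMSO at day 21 and 26.4 ± 3.04 CPM in FAKi at day 21 (SD, n = 3). Its DMSO day 21 replicate 3, the library nearest to day 3, had 29.4 CPM, and without it 9 members passed the adjusted p and 6 both thresholds, against 69.7% and 36.9% of genes. Without DMSO day 21 replicate 1 or 2, 4 passed the adjusted p (*BCL2*, *BAD*, *BBC3* and *PMAIP1*) and *BAD* alone both thresholds, and without DMSO day 0 replicate 1 it was *BCL2*, *BCL2A1*, *BAD* and *BBC3*. In these 3 fits 27.4%, 29.1% and 24.8% of genes passed the adjusted p. Over the 5 time points in DMSO, 8 of 10 members changed by edgeR's F test, all but *BCL2L1* and *MCL1*, against 49.9% of genes. The 8 include all 6 BH3-only members and *BCL2A1*. *BCL2A1* had 0 to 15 counts per library, with 28 of its DMSO counts at day 21, so its call carries no weight here either. The count of 8 became 5 without DMSO day 21 replicate 1 and 4 without replicate 2, against 37.4% and 38.4% of genes. *BMF* peaked at day 7, at 79.5 ± 2.28 CPM, and *BIK* and *BAD* were lowest at day 14, at 0.244 ± 0.158 and 9.58 ± 2.62 CPM.

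Around the members, the genes of 10 lists for the rest of the family, the apoptosis pathway and its regulators were read in the same fits. The effectors did not pass under FAKi on any single day with all 6 libraries. Without DMSO day 3 replicate 1, 1 of 3 did, and 2 of 3 did without DMSO day 21 replicate 3, all lower. In the mean effect over days 1 of 3 effectors was lower past the adjusted p. The 1 anti-apoptotic gene tested beside the members was higher in that fit (0.21). Counts of these lists without 1 library stand, here and below, against 32.7% of all genes at day 3, 2.96% at day 7 without FAKi day 7 replicate 1 and 48.5% at day 21. With all libraries they stand against 12.4% of all genes at day 14, 11.6% at day 21 and 15.7% for the mean effect. For the changes from day 3 to day 21 and to day 14 the shares are 2.93% and 8.54%. *BAX* had log2 fold changes of -0.27, 0.22, -0.03 and -0.29 and *BAK1* of -0.26, 0.16, 0.38 and -0.26 at days 3, 7, 14 and 21. *BID*, the BH3-only link to death receptors, was at -0.76, -0.05, 0.06 and -0.10, and none of these passed. In DMSO from day 0 to day 21 all 3 effectors were higher, with *BAX* at 0.90 ± 0.19 and *BAK1* at 0.50 ± 0.13, and *BID* was higher by 1.25 ± 0.18 (edgeR adjusted p = 0.00721, 0.0176 and 0.00271).

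Stress-response factors had the median farthest from 0 of these 10 lists at day 14. All 5 were lower in FAKi, with a median log2 fold change of -1.41 against -0.01 over all genes. *ATF4*, a transcription factor of the integrated stress response, was 1030, 916 and 984 CPM in DMSO and 301, 292 and 283 CPM in FAKi. *CHAC1*, its target that degrades glutathione, was 51.5, 43.0 and 50.6 CPM in DMSO and 10.1, 7.85 and 8.06 CPM in FAKi. In both genes the groups lay far apart, at log2 fold changes of -1.74 ± 0.09 and -2.48 ± 0.14, and *DDIT3*, which encodes CHOP, was at -1.41 ± 0.12 (edgeR adjusted p = 6.26e-11, 1.12e-10 and 1.24e-07). FAKi day 7 replicate 1, the library near day 14, had 293 CPM of *ATF4* and 9.50 CPM of *CHAC1*, against 1130 CPM or more and 110 CPM or more in its replicates. At day 21 *CHAC1* alone of the 5 passed (-0.92 ± 0.12, edgeR adjusted p = 0.00569), and 2 did without DMSO day 21 replicate 3. Averaged over days 4 of 5 were lower, and 5 of 5 without both libraries that stood apart.

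Feedback genes of ERK signaling gave 9 of 10 past the adjusted p at day 14, 7 lower and 2 higher. The transcription factors *ETV4* and *ETV5* were lower by 2.43 ± 0.11 and 1.34 ± 0.10 on the log2 scale and *EGR1*, an immediate early gene, was higher by 2.41 ± 0.21 (edgeR adjusted p = 5.43e-12, 1.20e-08 and 9.46e-08). At day 21, 4 of 10 were lower, *ETV4* at -2.20 ± 0.14, *ETV5* at -1.02 ± 0.14, *CCND1* at -0.99 ± 0.12 and *PHLDA1* at -0.54 ± 0.12, and 6 of 10 without DMSO day 21 replicate 3. Averaged over days 6 of 10 were lower, with *ETV4* at -1.66 ± 0.17. At days 3 and 7 no gene of these lists passed, but 4 of 10 ERK feedback genes were higher at day 3 without DMSO day 3 replicate 1, and 6 of 10 were lower at day 7 without FAKi day 7 replicate 1. In the change from day 3 to day 21, *ETV4* (-1.72), *ETV5* (-1.18) and *CHAC1* (-1.06) passed both thresholds, as did *BIRC5*, given below. By the adjusted p alone, 3 of 10 ERK feedback genes and 2 of 4 other BH3-only and BNIP genes passed there, all lower. From day 3 to day 14 all 5 stress-response factors, led by *CHAC1* (-2.59), passed both thresholds. So did 6 of 10 ERK feedback genes, led by *ETV4* (-1.92) and *EGR1* (1.69), and the death receptor genes *CASP8* (-2.02) and *TRADD* (1.04). In this change to day 14, 2 of 4 other BH3-only and BNIP genes were lower past the adjusted p, neither past the fold threshold.

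Of the genes downstream of the mitochondrion 6 of 18 passed at day 14, against 12.4% of all genes, 5 higher and 1 lower, each by less than the fold threshold. At day 21, 3 of 18 passed, all lower, against 11.6% of all genes. They were *BIRC5* (survivin, -1.51 ± 0.21), *CYCS* (cytochrome c, -1.20 ± 0.13) and *VDAC1* (-0.57 ± 0.11), with edgeR adjusted p of 0.00732, 0.0042 and 0.0223. The count was 9 of 18, 8 lower and 1 higher, without DMSO day 21 replicate 3, near the 48.5% of all genes. *BIRC5* was higher in FAKi at day 14 (0.52 ± 0.12), and its effect changed by -1.81 ± 0.29 from day 3 to day 21 (edgeR adjusted p = 0.00752). In the death receptor arm 2 of 9 passed at day 14, *CASP8* lower by 1.59 ± 0.46 at levels between 0.692 and 3.35 CPM and *RIPK1* higher by 0.47 ± 0.13. The 4 genes for MCL1 turnover did not pass under FAKi on any day with all 6 libraries, and 2 were higher at day 3 without DMSO day 3 replicate 1 and 3 at day 21 without DMSO day 21 replicate 3. Of the other BH3-only and BNIP genes, *HRK* and *BNIP3L* were lower at day 14 (-0.73 and -0.47), and *FOXO4* was the 1 of 3 FOXO genes that passed then (-0.49). At day 21 no FOXO gene passed with all 6 libraries, and 2 of 3 were higher without DMSO day 21 replicate 3.

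**Figure D5:**
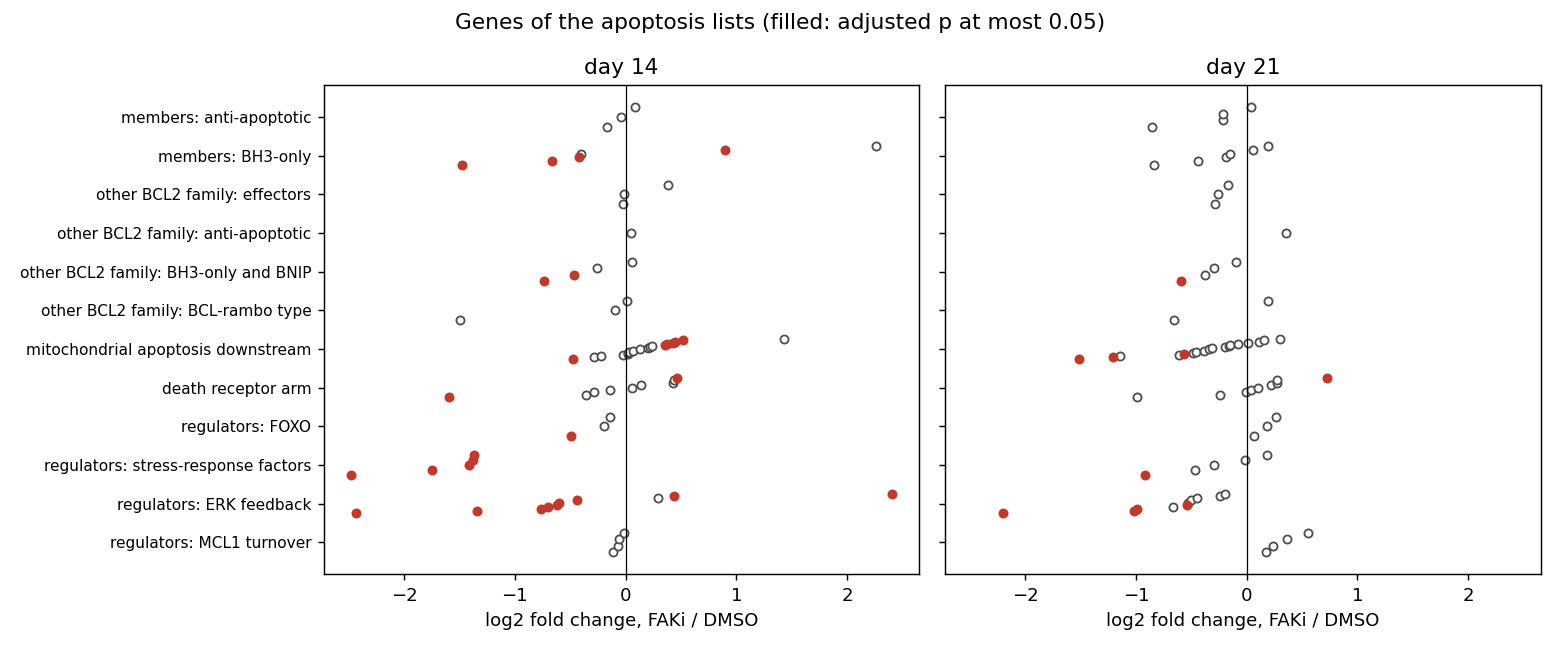
Log2 fold change of FAKi over DMSO at days 14 and 21 for every tested gene of the member, family, apoptosis and regulator lists described here, with filled points for an edgeR adjusted p of at most 0.05. At day 14 the 5 stress-response factors lie at -1.37 or lower, and *ETV4* lies below -2 on both days.

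In DMSO from day 0 to day 21, genes of several arms were called beside *BID*. *ENDOG* (1.60), *HTRA2* (1.05), *BCL2L12* (1.14), *TRADD* (1.03) and *DDIT3* (1.00) were higher, and *EGR1* (-1.58) and *HUWE1* (-1.04), a ubiquitin ligase of MCL1, were lower. Of the 18 genes downstream of the mitochondrion 8 were higher and 1 lower, a share near the 44.9% of all genes, and without DMSO day 21 replicate 3 it was 9 and 5, against 69.7%. Of the 3 FOXO genes *FOXO1* (-0.96) and *FOXO3* (-0.52) were lower, and all 3 without that library. *MITF* fell by 0.44 ± 0.15 (edgeR adjusted p = 0.0436) and under FAKi was at 0.42, 0.37, -0.04 and -0.21 at the 4 days, not past the adjusted p.

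Over the 27 libraries the members fell into a few patterns. These correlations of log2 CPM describe libraries that share groups, days and depth, so no p is given. *PMAIP1* went with *BCL2L11* (r = 0.81), *BCL2* (0.76) and *BMF* (0.72), *MCL1* went with *BCL2* (0.79), and *BAD* ran against *BCL2* (-0.77) and *PMAIP1* (-0.61) and with *BBC3* (0.62). Among 16980 other genes, those most like *PMAIP1* were *DDR2* (0.96), *SLC38A1* (0.95) and *NARS1* (0.95). For *BMF* they were *ERBB3* (0.95), *SPRY4* (0.93) and *DUSP6* (0.93), of which *SPRY4* and *DUSP6* are on the ERK feedback list. *ASB6* (0.96) and *APRT* (0.96) were among the 3 most like *BAD*, and *TMEM74B* (0.96), *ABHD14A-ACY1* (0.94) and ENSG00000284341 (0.94) most like *BBC3*. For *BCL2* they were *SEPTIN11*, *FLRT2* and *ZNF518B* (0.94 each), for *MCL1* *ZNF664* (0.94), *F2R* (0.93) and *PIGA* (0.93), and for *BCL2L11* *LINC00665* (0.92), *CDK5R1* (0.90) and *SLC39A14* (0.90). *BCL2L1* had no close match, the highest being *UCP2* and *CRTAP* (0.73 each) and *PLPBP* (0.73).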

How the data were processed

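The authors trimmed reads with Trim Galore, checked them with FastQC 0.11.8, aligned them to hg38 with STAR 2.5.3a and counted them with HOMER. The deposited values are raw counts on the exons of 1 transcript per gene (GENCODE, per the file header), without normalization. Libraries were made with a stranded kit, and the strand setting of the counting is not given in the sources used here. Coordinates are those of the file (hg38), and overlaps were taken from GENCODE annotation of that build, which holds no *BCL2L11* transcript of the counted ID.

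The 10 members, the gene lists and the tests were chosen with earlier results of these data known, and no list is independent evidence. All 10 members are named. Genes of the other lists are named when past both thresholds in a comparison (at most 3 of the largest per list and comparison) or beside a count of 5 or fewer, and *BAX*, *BAK1*, *BID* and *MITF* always. For likeness the 3 genes with the highest Pearson r are named, among genes with a mean of at least 1 CPM. A list of regulators and some genes that these rules name are not reported here. Groups follow the labels, and all 27 columns were matched.

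Genes with at least 20 counts over the fitted libraries were scaled by TMM and tested with edgeR 4.0.16 in R 4.3.3 (glmQLFit, glmQLFTest) with Benjamini-Hochberg adjustment over all genes, in place of the DESeq2 of the study's methods, which was run as an alternative (1.42.0). The thresholds were an adjusted p of 0.05 and an absolute log2 fold change of 1. CPM levels carry no prior count, and a prior count of 2 entered only log2 CPM for distances and correlations. A library stood apart when both its distances were over 1.5 times that between the other libraries of its group. The scripts were tested on simulated counts. Alternatives were other scalings and count filters, mitochondrial genes left out, all 27 libraries in 1 fit, a replicate block and each library left out. The fits without the libraries that stand apart and the change from day 3 to day 14 were added after the data were seen.

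Whether replicate numbers pair libraries was checked by correlating, over genes, the deviations of same-numbered libraries from their group means. For the day 21 libraries these correlations came to 0.44, 0.13 and 0.66, each above 0.1. They include the deviations of DMSO day 21 replicate 3, which stood apart, so they cannot show that the numbers pair the libraries. The blocked values of *BMF* and *BAD* at day 21 are given as an alternative. At days 3, 7 and 14 and between DMSO day 0 and day 21 at least 1 r was lower.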

Additional observations from a re-analysis of the deposited data

Results flagged for a closer look

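The FAKi effect differed between days 3 and 14 in 3 members by an interaction test over 12 libraries, a comparison chosen after the data were seen. *PMAIP1* changed by -2.23 on the log2 scale, with FAKi above DMSO in 3 of 3 libraries at day 3 and below in 3 of 3 at day 14 (edgeR adjusted p = 6.61e-05). *BAD* changed by 1.78, with all 3 FAKi libraries below DMSO at day 3 and above at day 14 (edgeR adjusted p = 0.00262). Both calls held in all 21 fits run, from -2.47 to -2.07 for *PMAIP1* and from 1.54 to 2.03 for *BAD*. *BCL2* changed by -0.76 (edgeR adjusted p = 0.0476), and its adjusted p ran from 0.00205 to 0.136 over the same fits, with 11 of 21 past the threshold. At day 3 the 2 of 3 DMSO libraries other than replicate 1 held 9.59% and 8.61% mitochondrial counts against 16.8% to 18.7% in FAKi, and the part of this in the changes was not tested.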

How the results depend on the processing

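None of the 16 member values past the adjusted p changed sign under any alternative run, while 17 of the others changed sign under at least 1. Of the values for single members, 1311 kept their side of the threshold, 44 passed only under an alternative and 25 passed only without it. Where a count of members moved, the cause was not tested. By the adjusted p at day 3, no count filter passed 3 members (*BCL2*, *BAD*, *PMAIP1*), DESeq2 2 (*BAD*, *PMAIP1*) and all 27 libraries in 1 fit 2 (*BCL2*, *BAD*), against 8.95%, 8.05% and 9.14% of genes. At day 7 no count filter and all 27 libraries each passed 1 (*BMF*), against 1.33% and 0.54%. At day 14 edgeR's filterByExpr and all 27 libraries each called 2 by both thresholds (*BIK*, *PMAIP1*), against 1.92% and 2.24%. At day 21 no count filter passed 1 (*BAD*, against 13.1% of genes), and DESeq2, all 27 libraries and the replicate block passed 2 each (*BMF*, *BAD*), against 20.6%, 19.2% and 29.9%, so these members' shares were near or under those of all genes. The mean effect passed 4 without the libraries that stood apart (*BCL2*, *BMF*, *BAD*, *BBC3*), against 25.3%. The change from day 3 to day 21 passed 1 without a count filter (*PMAIP1*), against 4.55%. The replicate block changed no other count by over 1.5 times. In the other comparisons it lost *BCL2* in the change from day 3 to day 14 (-0.77, edgeR adjusted p = 0.0643). It gained *BIK* in DMSO day 21 against day 0 (1.61, 0.0177) and changed no other member's call.

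With each library left out in turn, members past the adjusted p numbered 0 to 4 at day 3, 0 to 1 at day 7, 3 to 5 at day 14, 0 to 2 at day 21, 2 to 4 for the mean effect, 0 to 0 for the change from day 3 to day 21, 2 to 3 for that to day 14, 4 to 9 for DMSO day 21 against day 0 and 4 to 9 over the DMSO time points. The share of all genes moved too, from 0% to 32.7% at day 3, 0% to 2.96% at day 7, 6.1% to 13.7% at day 14, 0.229% to 48.5% at day 21, 11.5% to 24.6%, 0.637% to 10.1% and 3.05% to 22.8% for the mean effect and both changes, 24.4% to 69.7% for DMSO day 21 against day 0 and 37.4% to 56.8% over the time points. By both thresholds they numbered 0 to 2 at day 3 (*BAD* and *PMAIP1*, without DMSO day 3 replicate 1), 0 to 0 at day 7, 1 to 2 at day 14 (*BAD* without DMSO replicate 1, *BIK* without DMSO replicate 2), 0 to 1 at day 21 (*BAD*, without DMSO replicate 3), 0 to 0 for the mean effect and the change to day 21, 2 to 2 for the change to day 14 and 1 to 6 for DMSO day 21 against day 0. The mean effect rose to 4 without FAKi day 7 replicate 3 (*BMF*, *BIK*, *BBC3*, *PMAIP1*). The values of *BCL2A1* and *BIK* rest on few counts, 0 to 15 and 3 to 73 per library.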
